A study of Mus musculus with 2 samples.

Results

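Potassium channel genes were read in single taste cells that make α-gustducin, the G protein subunit of taste that Gnat3 encodes. The genes were all those whose symbol starts with Kcn in either count table, apart from Kcnj11. There were 67 such genes among 21888 listed genes. Of these, 58 were listed for the fungiform papillae and 62 for the circumvallate papilla, and 53 were in both lists. The cells were adult taste cells of the mouse strain alpha-gustducin-GFP on a C57BL/6J background, in which α-gustducin cells carry green fluorescent protein (GFP) and were taken by GFP sorting. Both groups carried the same transgene, no treatment was given in the labels, and no cells without the transgene were analysed here. There was 1 library from the fungiform papillae at the front of the tongue (FP) and 1 from the circumvallate papilla at its back (CV). The sources used here do not give the number of animals behind each library. Cells over 500 genes whose Gnat3 exceeded 0.9 on the scale ln(1 + counts per 10000) were kept, which left 21 of 29 FP barcodes and 32 of 61 CV barcodes, or 53 of 90 in all. No barcode was shared between the libraries.

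With 1 library per papilla, differences between FP and CV had no replicate check. No test was made, and every 95% interval given for a level, a ratio or a share covers counting error only. Levels are counts of a gene scaled to a library total of 1000000 (CPM), with the counts of all kept cells of a library pooled unless a single cell is named. Kept cells held 193718 to 3190340 counts in FP and 32726 to 3447628 in CV. Mitochondrial counts made up 8.17% to 68.0% of a kept cell in FP (median 11.1%) and 1.63% to 88.6% in CV (median 12.5%). Ribosomal RNA reached 1.46% in FP and 79.0% in CV. When barcodes over 500 genes were clustered, 12 kept cells fell in a cluster of 32 barcodes with a median of 80.4% mitochondrial counts. None of the 7 type II taste cell markers was 2-fold higher there than in the other barcodes. All 7 type II taste cell markers were at 10 CPM or more in both libraries and summed to 21013 CPM (FP) and 17974 CPM (CV). In single cells their sum ran from 4887 to 27186 CPM in FP and from 263 to 35988 CPM in CV. The type III markers, of which 5 of 8 were found in the count tables, summed to 2.16 and 99.98 CPM. The type I markers (3 of 5 found) summed to 8.70 and 19.6 CPM, and the keratinocyte markers to 492 and 240 CPM. Of the keratinocyte sums, Lypd3 alone gave 314 (FP) and 188 (CV) CPM. The defining keratinocyte gene Krt13 was at 32.8 (FP) and 0.0677 (CV) CPM. Sfn, at 36.2 and 42.3 CPM, and Krt84, at 0 and 7.04 CPM, went the other way. The endothelial marker Pecam1 was at 0 and 36.3 CPM. The part of these other markers in the values below was not tested. In CV, 5 kept barcodes had numbers within 4 of another's, with totals from 54413 to 1350869 counts, and calls that turn on them are named. Without them, 8 genes passed 2-fold on the FP side and 11 on the CV side (7 and 10 with them, as given below), and a median of 7 members was on per CV cell (5.5 with them).

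Potassium channels let potassium leave or enter a cell and so set its resting voltage and end its action potentials. Voltage-gated channels open on depolarisation, inward rectifiers pass current best near the resting potential, and two-pore channels leak at most voltages. α-Gustducin cells are type II taste cells, which respond to sweet, umami or bitter compounds by opening the cation channel Trpm5, fire sodium action potentials and release ATP. The potassium conductance therefore bears on how such a cell rests and repolarises.

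At least 1 count was found for 65 of the 67 genes in the kept cells, and 30 reached 10 CPM in at least 1 library. The 2 genes with no count were the two-pore genes Kcnk13 and Kcnk16. A gene was called on in a cell at 50 CPM or more. In FP, 28 of the 51 genes with counts were on in at least 1 cell (54.9%), against 60.8% of all genes with counts. In CV, 29 of 58 were (50%), against 61.5% of all genes with counts. The shares of the Kcn genes were below those of all genes. Of the 67 genes, 8 were on in 5 or more cells of both papillae, among them Kcnq1, Kcnq3, Kcnh2, Kcnh7, Kcns3, Kcnj2 and the non-coding Kcnq1ot1. Summed over the protein-coding members, the level was 1854 CPM in FP and 1947 CPM in CV.

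**Figure D1:**
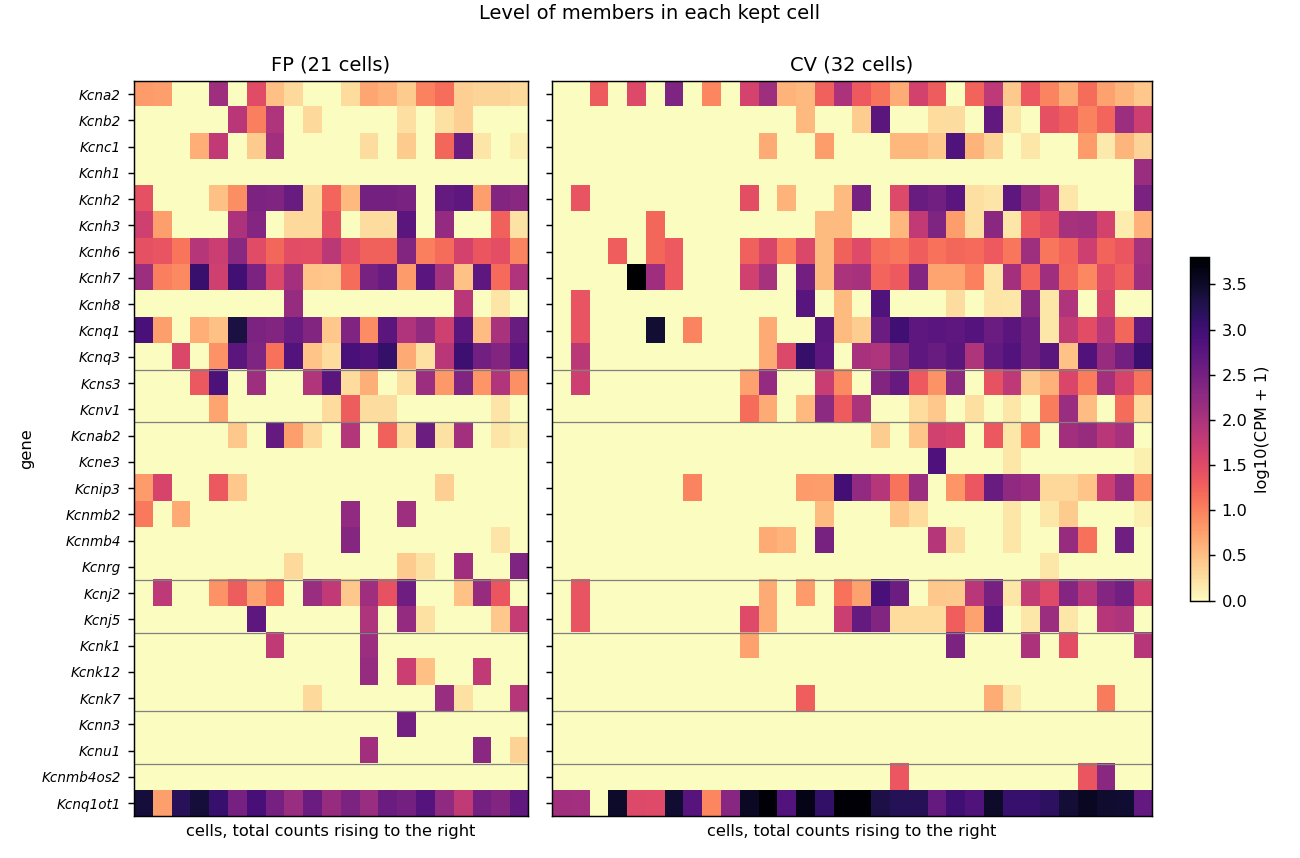
Level of 28 of the genes that reached 10 CPM, as log10(CPM + 1), in each kept cell of FP (left, 21 cells) and CV (right, 32 cells), with cells ordered by total counts and grey lines between gene families. Kcnq1ot1 fills most columns, whereas most pore genes are high in some cells and near 0 in others, and the shallow CV cells at the left hold few genes.

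Of the 30 genes at 10 CPM or more, 7 (23.3%) had 2-fold or more in FP over CV and 10 (33.3%) in CV over FP, on the scale log2(CPM + 10). Over all 10918 genes tested the shares were 17% and 21%. The remaining 13 genes lay within 2-fold. As a median, the FP over CV log2 ratio was -0.11 for the 30 genes and -0.05 for all genes. Many of these differences rested on 1 cell. When the highest cell of each library was left out for each gene, 21 genes still reached 10 CPM, and of these 2 passed 2-fold on the FP side and 8 on the CV side, with background shares of 16.8% and 24.4%. Among the 17 genes past 2-fold, only Kcnb2, Kcnh8, Kcnip3 and Kcnq1ot1 stayed past it in the same direction under all 12 alternative ways of computing the ratio, and all 4 were higher in CV.

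**Figure D2:**
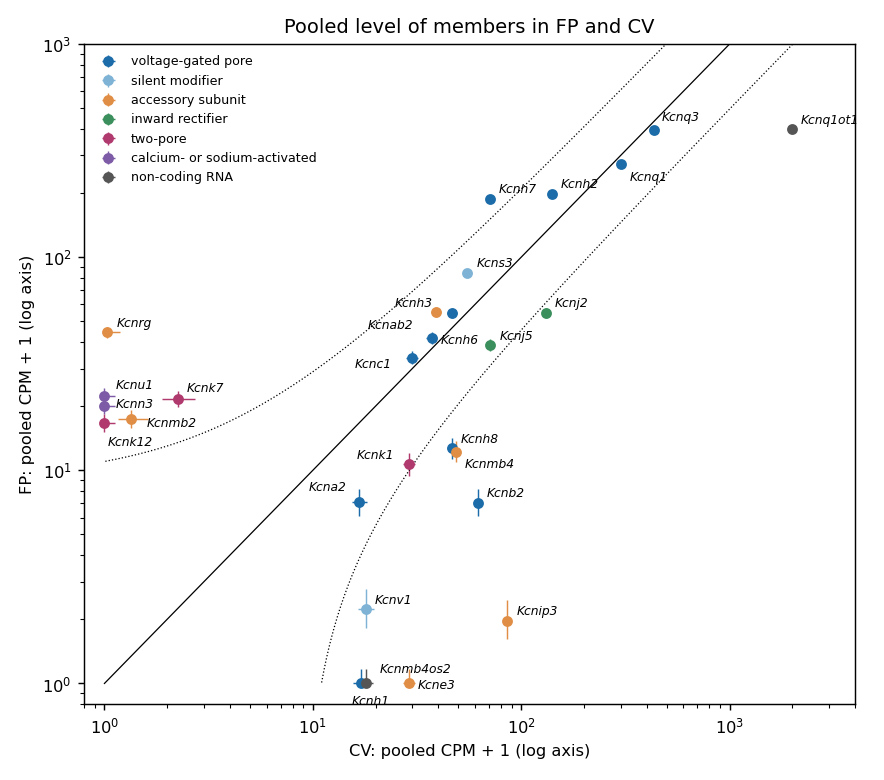
Pooled level of 28 of the genes in CV (x axis) and FP (y axis), both as CPM + 1 on log axes and coloured by gene family, with 95% Poisson intervals as bars, the line of equal level and dotted lines at 2-fold on the log2(CPM + 10) scale. Kcnq1, Kcnq3 and Kcnh2 lie near the line of equal level, and Kcnip3, Kcnb2 and Kcnq1ot1 lie well to its right.

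The voltage-gated pore subunits made up most of the level. Of 24 listed genes of this kind, 13 reached 10 CPM, and all 24 together summed to 1457 CPM for FP and 1410 for CV. By the 2-fold rule 1 of the 13 was higher in FP (17% of all genes were), 3 were higher in CV (21% of all genes were) and 9 lay within 2-fold. The Kcnq genes, which encode slowly activating Kv7 channels, gave 823 CPM (FP) and 902 CPM (CV). The Kcnh genes, which encode the ether-à-go-go channels (the Eag, Erg and Elk groups), gave 490 and 353 CPM.

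Kcnq1 (chr7:143106362-143427042, plus strand, mm10) encodes the Kv7 pore subunit of heart and epithelia, whose gating is set by Kcne partners. In FP cells its level ran from 0 to 2217 CPM with a median of 163 CPM, and in CV cells from 0 to 2706 CPM with a median of 19.4 CPM. Pooled over cells, FP had 271 CPM (265 to 278) and CV 299 CPM (292 to 305), a log2 ratio of -0.13 whose sign changed in 2 of the 12 alternatives. Of 21 FP cells, 13 had Kcnq1 on (61.9%, Clopper-Pearson 38.4 to 81.9), and in CV 14 of 32 (43.75%, 26.4 to 62.3). The 2 ranges overlapped almost wholly, and the intervals of the shares overlapped too. With each cell thinned to 71770 counts, which left out 6 CV cells, 13 of 21 FP and 11 of 26 CV cells were on. In 7 FP barcodes that clustered as keratinocyte-like, led by Krt13, Krt76, Krtdap and Lor, the pooled level was 0.923 CPM and Kcnq1 was on in none, although 4 of them had a count. Their median total was 1679950 counts, while the kept cells had medians of 1141640 (FP) and 543963 (CV). Per kilobase of the longest annotated transcript, Kcnq1 was the highest of all members in both libraries, at 89.6 CPM per kb in FP and 98.6 CPM per kb in CV. That ranking depends on the division by length, with 3029 bases for Kcnq1 and 11824 for Kcnq3. Whether counts rose with transcript length was not tested.

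Kcnq3 (chr15:65986387-66286642, minus strand) encodes a subunit of the neuronal M-current. Its level ran from 0 to 1257 CPM in FP cells (median 72.0) and from 0 to 1205 CPM in CV cells (median 90.3). It was the highest pore gene in pooled CPM, with 394 CPM (386 to 402) for FP and 434 CPM (427 to 442) for CV, but at 33.3 and 36.7 CPM per kb it stood below Kcnq1. In FP 11 of 21 cells were on and in CV 18 of 32, and 11 CV cells had no count.

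The log2 ratios of Kcnq1 and Kcnq3 both changed sign when each cell was thinned to equal counts and when CPM was averaged over cells, so neither is given a direction. In the keratinocyte-like barcodes Kcnq3 was at 1.09 CPM, and it was on in none of the 7.

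Cells differed in which of Kcnq1 and Kcnq3 passed the limit for on. In FP 5 cells had neither on, 5 had Kcnq1 alone and 3 had Kcnq3 alone. In CV these numbers were 12, 2 and 6. Both were on together in 8 FP cells and in 12 CV cells, against 6.81 and 7.88 if the 2 genes were independent. In CV, 11 of 32 cells had no Kcnq pore gene on, but only 3 of the 22 with at least 190000 counts. The part of depth in these numbers was not tested. Across cells of 1 library, which share that library and differ in depth, Pearson's r of their log2 levels was 0.41 over 21 FP cells and 0.52 over 32 CV cells.

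**Figure D3:**
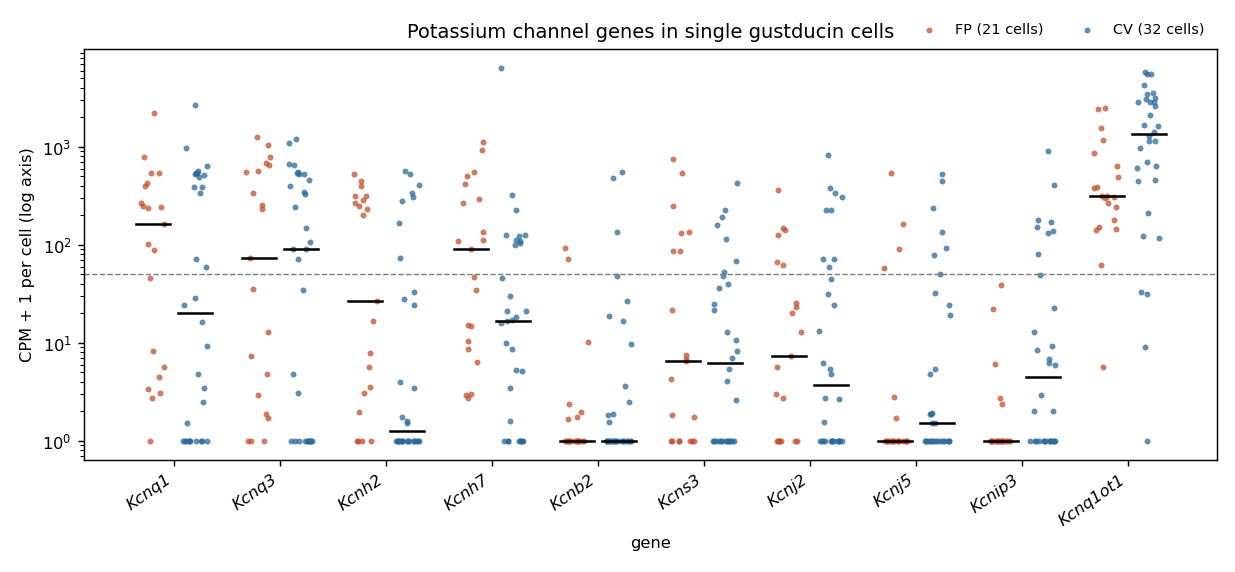
Level of 10 members in every kept cell, as CPM + 1 on a log axis, with FP cells in red, CV cells in blue, black bars at the medians and a dashed line at the 50 CPM limit for a gene to be on. The ranges of the Kcnq and Kcnh genes overlap between the papillae, Kcnip3 passes the line in CV cells only, and Kcnq1ot1 lies above it in nearly all cells.

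Kcnh2 (chr5:24319589-24351604, minus strand), the Erg channel that repolarises the heart, ran from 0 to 525 CPM in FP cells (median 25.8) and from 0 to 561 CPM in CV cells (median 0.257). Of 21 FP cells 10 had it on, and of 32 CV cells 8. These medians and shares were taken over cells of unequal depth. With each cell thinned to 71770 counts, which left out 6 CV cells, Kcnh2 was on in 10 of 21 FP and 10 of 26 CV cells. Pooled levels were 197 CPM (191 to 203) and 140 CPM (135 to 144), a ratio of 1.41 (1.35 to 1.47) that stayed under 2-fold and above 1 in all 12 alternatives. Over the on cells the medians were close, at 298 CPM (FP) and 322 CPM (CV).

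Kcnh7 (chr2:62693414-63184287, minus strand), another Erg subunit, had a count in all 21 FP cells, where its level ran from 1.75 to 1122 CPM with a median of 89.3 CPM. In CV it ran from 0 to 6386 CPM with a median of 15.8 CPM and a count in 24 of 32 cells. The on cells were 11 of 21 in FP and 10 of 32 in CV. The pooled levels were 187 CPM in FP and 69.7 CPM in CV, a ratio of 2.68 (2.55 to 2.83) and a log2 ratio of 1.31. That direction depended on how cells were weighted. The highest CV cell had 401 Kcnh7 counts in a total of 62797 and was 1 of the barcodes with adjoining numbers. With CPM averaged over cells the log2 ratio was -0.15. Of the 7 keratinocyte-like barcodes, 4 had Kcnh7 counts and 1 was on.

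Kcnh6, the remaining Erg gene, was low but broadly detected, which was noticed after its values were seen. It had a count in all 21 FP cells, at 8.46 to 229 CPM, and in 25 of 32 CV cells, with pooled levels of 40.7 and 36.2 CPM. A count was also present in 6 of the 7 keratinocyte-like barcodes, at 10.5 CPM pooled. The Elk gene Kcnh8 was at 11.7 CPM in FP and 45.5 CPM in CV, a CV over FP ratio of 3.89 (3.41 to 4.46), and this stayed past 2-fold in all 12 alternatives. Few cells carried it, with a count in 3 FP and 11 CV cells and on in 2 and 4. The top cell held 59.2% (FP) and 35.5% (CV) of its counts. Another Elk gene, Kcnh3, ran from 0 to 545 CPM in FP cells (median 0.813) and from 0 to 254 CPM in CV cells (median 0.478), with pooled levels of 53.8 and 45.6 CPM. The Eag gene Kcnh1 was at 0 in FP and at 15.98 CPM in CV, where 1 cell held all of its counts.

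Kcnb2 (chr1:15287254-15723750, plus strand) encodes a delayed rectifier subunit of the Kv2 family. Its level ran from 0 to 92.9 CPM in FP cells and from 0 to 552 CPM in CV cells, with a median of 0 in both. Pooled, FP had 6.05 CPM (5.08 to 7.15) and CV 61.1 CPM (58.3 to 64.0), a CV over FP ratio of 10.1 (8.49 to 12.1). The log2 ratio was -2.15 and stayed between -3.14 and -1.44 over the alternatives. The share of on cells did not follow the pooled level, with 2 of 21 in FP (9.52%, 1.17 to 30.4) and 3 of 32 in CV (9.38%, 1.98 to 25.02). The papillae thus differed in the level of a few cells, with medians of 81.8 CPM over the 2 on cells of FP and 477 CPM over the 3 of CV. All 7 keratinocyte-like barcodes were at 0.

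Of other voltage-gated pore genes, the Kv1 gene Kcna2 was at 6.09 (FP) and 15.7 (CV) CPM, and the Kv3 gene Kcnc1 was at 32.8 and 29.02 CPM with 77.4% and 95.2% of its counts in 1 cell. The Kv4 genes Kcnd1 and Kcnd3 were under 10 CPM in both libraries. Silent modifiers do not form channels alone but alter Kv2 channels. Among these, Kcns3 ran from 0 to 748 CPM in FP cells (median 5.49) and from 0 to 424 CPM in CV cells (median 5.26), was on in 7 cells of each papilla, and had pooled levels of 83.6 and 54.1 CPM. Kcnb2 and Kcns3 were on together in 0 FP cells and in 1 CV cell. Kcnv1 was at 1.24 CPM in FP, at 16.996 CPM in CV, and at 13.9 CPM in the keratinocyte-like barcodes.

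Of 9 accessory subunit genes, 6 reached 10 CPM, of which 2 passed 2-fold on the FP side and 3 on the CV side (17% and 21% of all genes). Kcnip3 (chr2:127456498-127522094, minus strand) encodes a calcium-binding protein that joins Kv4 channels and also acts in the nucleus as a repressor. In FP cells it ran from 0 to 37.8 CPM, and in CV cells from 0 to 909 CPM with the next highest cell at 404 CPM. It was on in 0 of 21 FP cells, where 3 cells as a floor still allow 14.3%, and in 8 of 32 CV cells (25%, 11.5 to 43.4). The single-cell ranges overlapped, because 13 CV cells had no count. Pooled, FP had 0.971 CPM (0.609 to 1.47) and CV 84.8 CPM (81.5 to 88.2), a CV over FP ratio of 87.3 (57.5 to 139.5), and the log2 ratio of -3.11 was the most negative among the 30 genes. After thinning to 71770 counts, which left out 6 CV cells, a count remained in 3 of 21 (FP) and 13 of 26 (CV) cells, against 5 of 21 and 19 of 32 before. All 3 CV cells with Kcnb2 on also had Kcnip3 on, against 0.75 if the 2 genes were independent. The cells differ in depth, and this overlap was not tested. The summed type III markers were also higher in CV, and their part in the Kcnip3 level was not tested.

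Kcnab2, the Kv1 beta subunit, was on in 4 cells of each papilla and ran from 0 to 448 CPM in FP cells (median 0.592) and from 0 to 150 CPM in CV cells (median 0), with pooled levels of 54.1 and 37.95 CPM. Kcne3, a partner of Kcnq1 in epithelia, was at 0 in FP and at 27.9 CPM in CV, but 99.8% of its CV counts lay in 1 cell. Kcnmb4, a beta subunit of the calcium-activated BK channel, was at 11.2 (FP) and 47.4 (CV) CPM, with 99.6% and 61.8% of its counts in 1 cell. Another BK beta subunit gene, Kcnmb2, was at 16.3 and 0.339 CPM. In FP it had a count in only 4 cells, was on in 2, and 53.5% of its counts lay in 1 cell. Without the highest cell its log2 ratio went from 1.35 to 0.80, which is under 2-fold. The BK pore gene Kcnma1 was under 10 CPM in both libraries. Kcnrg, which interferes with the assembly of voltage-gated channels, was at 43.4 CPM in FP, with 80.8% of its counts in 1 cell, and had 1 count in CV.

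Among 10 inward rectifier genes only Kcnj2 and Kcnj5 reached 10 CPM. Kcnj2 (chr11:111066164-111076821, plus strand) encodes a strong rectifier of the Kir2 family that holds the resting potential in muscle. It ran from 0 to 366 CPM in FP cells (median 6.28) and from 0 to 831 CPM in CV cells (median 2.75). The shares of on cells were nearly equal, with 6 of 21 in FP (28.6%, 11.3 to 52.2) and 9 of 32 in CV (28.1%, 13.75 to 46.75). Pooled, FP had 53.9 CPM (50.9 to 56.98) and CV 130 CPM (126 to 134.5), a CV over FP ratio of 2.42 (2.27 to 2.58). The log2 ratio of -1.14 fell inside 2-fold in 3 of the 12 alternatives but kept its sign in all of them. In the keratinocyte-like barcodes Kcnj2 was at 0.503 CPM and on in none. In FP, 2 cells had both Kcnj2 and Kcnq1 on, and 11 cells had Kcnq1 alone. In CV, 7 cells had both and 7 had Kcnq1 alone. If the 2 genes were independent, 3.71 FP cells and 3.94 CV cells would have both. The cells differ in depth, and these overlaps were not tested.

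Kcnj5, a G protein-gated inward rectifier subunit, ran from 0 to 535 CPM in FP cells (median 0) and from 0 to 533 CPM in CV cells (median 0.526). On cells were 4 of 21 and 6 of 32, with pooled levels of 37.7 and 70.1 CPM. Its usual partner Kcnj3 was under 10 CPM in both libraries. In CV, 4 of the 6 cells with Kcnj5 on also had Kcnj2 on, and r of the log2 levels was 0.49 over 32 cells, which share a library and differ in depth. In FP 8 of 21 cells had an inward rectifier on, and in CV 12 of 32. Kcnj1, which marks type I taste cells, was under 10 CPM in both libraries.

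The two-pore genes were sparse. Of 11 genes, 9 had a count, 3 reached 10 CPM, and all 11 together summed to 48.7 and 44.3 CPM in FP and CV. In FP 6 of 21 cells had at least 1 of the 11 on, and in CV 4 of 32. Kcnk1 (chr8:125995170-126030685, plus strand), a weak inward rectifying leak channel, ran from 0 to 132 CPM in FP cells and from 0 to 270 CPM in CV cells, with medians of 0. It was on in 2 FP and 3 CV cells, and the pooled levels of 9.67 and 27.97 CPM gave a log2 ratio of -0.95, which passed 2-fold in 5 of the 12 alternatives, at -1.01 without the adjoining CV barcodes.

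Kcnk12 (chr17:87745801-87797994, minus strand) encodes a subunit that gives little current when expressed alone. It ran from 0 to 151 CPM in FP cells, was on in 3 of 21, and had a pooled level of 15.7 CPM (14.1 to 17.4). It was not listed for CV, and taken as 0 there, its FP level was at least 155-fold higher, with 3 counts in the pooled CV library as the floor. Only 4 FP cells had a count of Kcnk12, and 1 of these held 52.2% of its FP counts. Without the highest cell its log2 ratio went from 1.36 to 0.84, which is under 2-fold. Kcnk7 (chr19:5704367-5707109, plus strand), for which no current of its own is known, ran from 0 to 143 CPM in FP cells and from 0 to 18.5 CPM in CV cells. Its pooled levels of 20.7 and 1.25 CPM gave an FP over CV ratio of 16.5 (11.8 to 23.7). Keratinocyte-like FP barcodes had more Kcnk7 than the kept FP cells, at 35.4 CPM. It was on in 1 of these 7 barcodes, which held 76.8% of their Kcnk7 counts. Kcnk6, under 10 CPM in kept cells, was likewise higher in the keratinocyte-like barcodes. The summed keratinocyte markers were higher in the kept FP cells than in CV, though Sfn and Krt84 were not. Their part in the Kcnk7 level was not tested.

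Of the 5 calcium- and sodium-activated pore genes, Kcnn3 and Kcnu1 reached 10 CPM, both in FP only. Kcnn3, a small-conductance calcium-activated channel, was at 19.1 CPM in FP, with all of its counts in 1 cell. Kcnu1, known as a sperm channel, was at 21.2 CPM in FP and not listed for CV, which makes it at least 209-fold higher by the same floor. It was on in 2 FP cells. These levels came from so few cells that they describe those cells and not the papilla.

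Kcnq1ot1 is a long nuclear RNA read from the strand opposite to Kcnq1 (chr7:143203458-143296549, minus strand). It is made from the paternal chromosome and silences neighbouring imprinted genes. Its 93092 bases lie wholly inside Kcnq1 and take in 1 Kcnq1 exon. The start of the RNA lies between exons 11 and 12 of the 16 exons of the longest Kcnq1 transcript. The 250 bases before its RefSeq start are shown because this RNA had the highest level of all members, and because the imprinted start region is known for its CCAAT boxes. They are from the RefSeq promoter table of GRCm38.p6 (chr7:143296548-143296797, minus strand), with each CCAAT in capitals. The GENCODE transcript starts within them and takes in their last 2 bases.
Kcnq1ot1 start region: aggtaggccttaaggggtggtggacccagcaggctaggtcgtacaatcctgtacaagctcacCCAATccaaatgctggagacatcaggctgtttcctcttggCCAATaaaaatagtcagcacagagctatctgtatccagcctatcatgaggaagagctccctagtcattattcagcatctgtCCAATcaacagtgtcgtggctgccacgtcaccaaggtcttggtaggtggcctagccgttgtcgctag
The letters CCAAT, searched on both strands, occurred 3 times, and the dinucleotide CG occurred 5 times. Among 32851 regions of the same length in the table, 33.8% held CCAAT at least once and 2.79% held it 3 or more times.

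Kcnq1ot1 was on in more cells than any other member. Its level ran from 4.73 to 2498 CPM in FP cells (median 312) and from 0 to 5777 CPM in CV cells (median 1343). Nearly all cells had it on, with 20 of 21 in FP and 28 of 32 in CV, so the papillae differed in level and hardly in the share of cells. Pooled, FP had 398 CPM (390 to 406.5) and CV 1989 CPM (1973 to 2005), a CV over FP ratio of 4.995 (4.89 to 5.11). The log2 ratio of -2.29 stayed between -2.45 and -1.61 over the 12 alternatives. The CV range took in the whole FP range. Of 2 other nuclear RNAs, Malat1 was at 1454 (FP) and 2060 (CV) CPM, and Neat1 at 1469 and 1432 CPM. The keratinocyte-like barcodes had 75.6 CPM of Kcnq1ot1 and 4 of 7 were on, and the 24 CV barcodes with more than 500 genes but too little Gnat3 had 71.9 CPM, so the RNA was not limited to the kept cells.

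Across cells, r between the log2 levels of Kcnq1 and Kcnq1ot1 was near 0, at 0.04 over 21 FP cells and 0.02 over 32 CV cells. Of the cells with Kcnq1ot1 on, 7 in FP and 15 in CV had Kcnq1 off. The sources used here do not say whether the counting used strand, so reads from the shared stretch cannot be told apart, and this holds also for Kcnmb4 and its antisense RNA Kcnmb4os2, which was at 16.9 CPM in CV and not listed for FP. In CV 85.8% of the Kcnmb4os2 counts lay in 1 cell, and without the highest cell its log2 ratio went from -1.43 to -0.33.

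**Figure D4:**
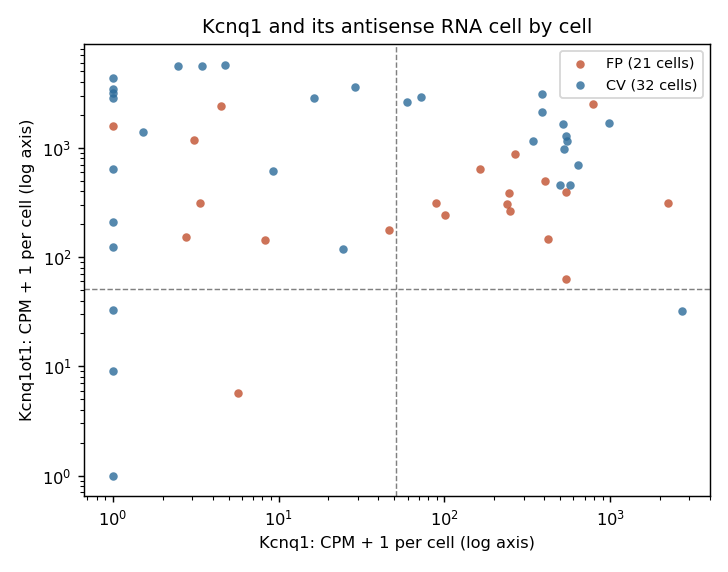
Level of Kcnq1 (x axis) against its antisense RNA Kcnq1ot1 (y axis) in each kept cell, as CPM + 1 on log axes, with FP cells in red, CV cells in blue and dashed lines at 50 CPM. Cells with Kcnq1 near 0 have Kcnq1ot1 over the same range as cells with high Kcnq1, and the CV cells lie higher on the y axis.

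Per cell, a median of 5 protein-coding members was on in FP (range 1 to 10) and of 4.5 in CV (0 to 9). The number moved with depth, since its r with log10 total counts was 0.68 over 21 FP cells and 0.83 over 32 CV cells. In CV, 7 cells had no protein-coding member on. Among the 22 CV cells of at least 190000 counts, the median was 6, and among the 10 shallower ones it was 0. The gene with the highest level per kilobase of transcript among pore genes was Kcnq1 in 8 of the 21 in FP and 10 of the 32 in CV. No other gene led as many cells in either papilla. These numbers depend on the same untested division by transcript length.

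The sweet and umami receptor subunit Tas1r3 was on in 8 FP and 7 CV cells, by the same limit of 50 CPM. Kcnq1 was on in 5 of 8 FP cells with Tas1r3 on and in 8 of 13 without, and in CV in 4 of 7 and 10 of 25. Kcnh7 was on in 6 of 8 and 5 of 13 FP cells, and in 4 of 7 and 6 of 25 CV cells. Kcnj2 was on in 3 of 8 and 3 of 13 FP cells, and in 2 of 7 and 7 of 25 CV cells. Cells with Tas1r3 on and cells without it both included cells with each of these 3 channels on. The cells without Tas1r3 were shallower in both papillae, with medians of 914630 counts against 1271620 in FP and 401621 against 1100200 in CV. These shares were not tested.

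Other genes of the same electrical machinery were read from a list of partners outside the Kcn symbols. Of 27 listed genes, 18 reached 10 CPM, of which 8 (44.4%) passed 2-fold on the FP side and 4 (22.2%) on the CV side, against 17% and 21% of all genes. Scn2a and its older symbol Scn2a1 were counted as separate entries. Among beta subunits of the sodium-potassium pump, which builds the potassium gradient, Atp1b2 was at 119 (FP) and 4.60 (CV) CPM and Atp1b3 at 131 and 41.7 CPM, both past 2-fold. Atp1b1, at 1967 and 1114 CPM, lay within 2-fold, and all 3 kept their sign in the 12 alternatives. The leak cation channel gene Nalcn was at 53.5 (FP) and 10.9 (CV) CPM. The sodium channel gene Scn2a went the other way, at 9.05 (FP) and 70.8 (CV) CPM, and stayed past 2-fold in all 12 alternatives. The cation channel gene Trpm5 was nearly level, at 1952 and 1783 CPM.

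**Figure D5:**
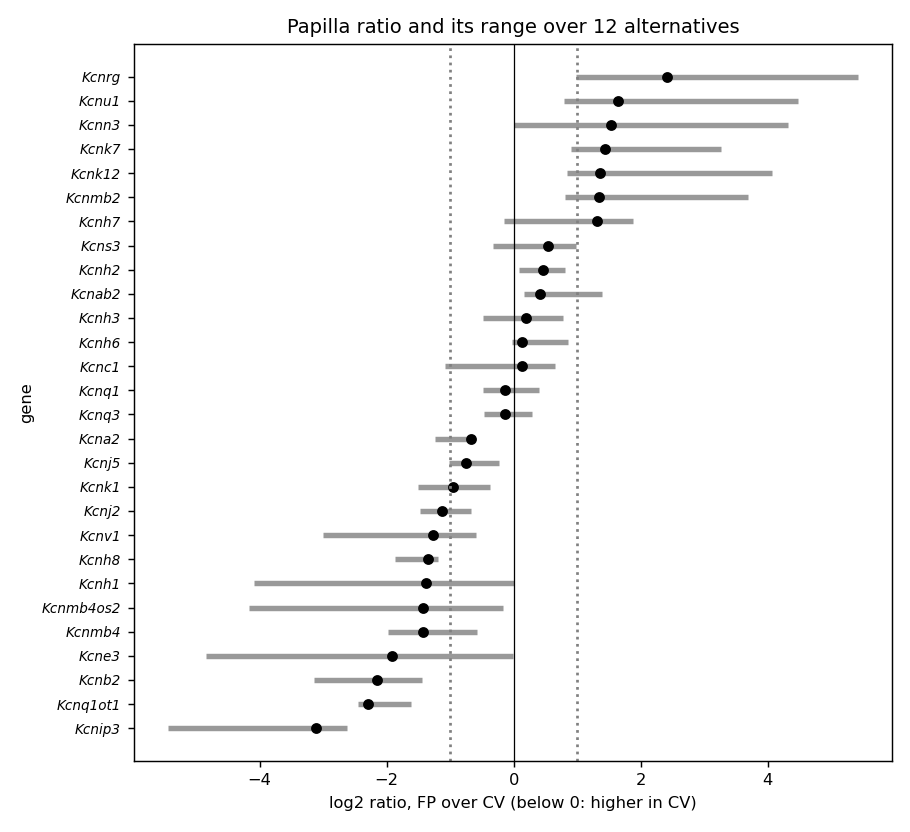
Log2 ratio of FP over CV on the log2(CPM + 10) scale for 28 genes (dots), with the range over 12 alternative computations (grey bars) and dotted lines at 2-fold in either direction. The bars of Kcnip3, Kcnq1ot1, Kcnb2 and Kcnh8 stay beyond the line on the CV side, the bar of Kcnh7 crosses 0, and those of Kcnq1 and Kcnq3 span 0.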

How the data were processed

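Sorted α-gustducin-GFP cells were captured by BD Rhapsody and their cDNA amplified by TAS-Seq, per the series design. The values are deposited counts of each gene in each barcode, all whole numbers, adjusted by the authors with a distribution-based error correction per the series design. Reads were handled with cutadapt 2.10, Bowtie2 2.3.4.1 and Seurat 2.3.4 on mm10, per the submitters' processing notes. The sources used here do not say whether molecular barcodes were collapsed, and the counts may hold PCR copies, and intervals and floors cover counting error only and may be too narrow.

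Kept cells were pooled per library as CPM. The authors' Gnat3 limit of 0.9 was read on the natural log scale, and no mitochondrial or ribosomal RNA limit was set. Levels carry exact Poisson, ratios exact conditional binomial and shares exact Clopper-Pearson 95% intervals. Folds used log2(CPM + 10), which understates the change of low genes. A gene missing from 1 table was taken as 0 there. A floor was 3 counts over the pooled library. Clustering used barcodes over 500 genes on ln(1 + counts per 10000) (1000 variable genes, 15 components, 10 neighbours, Leiden resolution 0.8, scanpy 1.11.5, leidenalg 0.10.2). No doublet caller was run. Positions came from GENCODE M21, where all 67 symbols matched, and 48 had a RefSeq start region. The ratio code was tested on simulated data.

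Genes at 50 CPM or more in a library, Kcnq1, Kcnb2, Kcnj2 and Kcnk genes with at least 10 CPM were described per cell, and others with at least 10 CPM by pooled level. Counts and sums include a few genes whose own values are not reported here. Values of genes outside this rule are named as such. The members, lists and the 50 CPM limit were chosen with earlier results of these data known. Alternatives were a pseudocount of 1, no low-value filter, mean single-cell CPM, other cell filters, another denominator and thinned counts. A further 2, without the adjoining CV barcodes and without cells under 190000 counts, were chosen after the data were seen.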

Additional observations from a re-analysis of the deposited data

Results flagged for a closer look

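Some members had more signal in barcodes left out of the comparison than in the kept cells of the same library. Kcnk6, which encodes a two-pore channel, was at 64.4 CPM in the 7 keratinocyte-like FP barcodes (768 counts, on in 2) against 2.47 CPM in the kept FP cells. Kcnc1 was at 162 CPM in the 24 CV barcodes with more than 500 genes and too little Gnat3, against 29.02 CPM in the kept CV cells, but 99.9% of its 1226 counts lay in 1 barcode. Kcnk1 was at 67.7 CPM in the same 24 barcodes, against 27.97 CPM in the kept ones, with all 511 counts in that same barcode. It held 4088415 counts, 54.2% of the pooled total of the 24, and 14.6% mitochondrial counts, whereas the 24 had medians of 158028 counts and 91.5%. These genes were picked out after their values were seen, and none of the differences was tested.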

How the results depend on the processing

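The count of genes at least 2-fold higher in FP (7) was 2 without the highest cell of each gene and 6 to 9 otherwise, and that in CV (10) was 7 to 12. The median log2 ratio (-0.11) became 0.18 with the mean of single-cell CPM, 0.059 without the deepest 10% of cells and 0.32 with thinned counts, so the genes as a whole are given no direction. Of the 17 genes past 2-fold, 14 kept their sign in all 12 alternatives. Kcnh7 was at -0.15 with the mean of single-cell CPM, and Kcnh1 and Kcnn3, each with all counts in 1 cell, fell to 0 without the highest cell (Kcnh1 also without the deepest 10% of cells). Of the 13 genes within 2-fold, 8 changed sign at least once. The median number of members on per cell, with non-coding RNAs, was 6 in FP and 5.5 in CV at 50 CPM. It became 17 and 21 at 1 count, and 10.5 in CV at 10 CPM. The cause of these changes was not tested. No paired analysis was possible because there was 1 library per papilla and no shared replicate number. Depth limits the 10 CV cells under 190000 counts, where 50 CPM is fewer than 10 counts.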
